A study of Mus musculus with 14 samples.

Results

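The loci of 10 genes of the fibroblast growth factor (FGF) pathway were examined in the chromatin of the mouse retina at embryonic day 14 (E14). They comprised the ligands Fgf3, Fgf8, Fgf9 and Fgf15, the receptors Fgfr1, Fgfr2 and Fgfr3, the feedback inhibitors Spry1 and Spry2 and the transcription factor Etv5. The genes were chosen by name, and the measurement was a list of 13463 regions enriched for histone H3 acetylated at lysine 27 (H3K27ac), a mark of active promoters and enhancers. A peak was assigned to a gene when it overlapped the gene body extended by 50 kb on either side, on the mm9 assembly with the GENCODE vM1 annotation. By that rule 42 of the 13463 peaks lay at the 10 loci. The protein-coding genes of the annotation, 22367 in all, were the comparison.

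The study asked how the homeodomain factor LHX2 acts on chromatin in retinal progenitors and holds 14 samples, of which the E14 H3K27ac ChIP-Seq was used here. For this sample the characteristics name CD1 mice and no mutant allele, and they give the cell type as retinal progenitor cells, while the methods describe whole dissected retinas for ChIP. The peak list pooled 2 replicate libraries against 1 isotype control, so no gene has replicate values or a test, and every value is a description of 1 list. In such bulk tissue, fewer cells that carry the mark and less of the mark per cell cannot be told apart. The list rests on 113543038 ChIP tags and 9210563 control tags after filtering, with the larger library scaled towards the smaller. Peaks ran from 313 to 32865 bp in length (median 1015 bp), from 6 to 40.2 in pileup (median 15.1 reads, after scaling) and from 2.06 to 11.1 in fold enrichment over the control (median 4.46). A peak at a transcription start site (TSS) was found at 12 of 12 markers of retinal progenitors and at 10 of 40 markers of other cell types. The latter were Pou4f2, Atoh7, Isl1 and Elavl4 of ganglion cells, Otx2 of photoreceptors, Foxn4 and Onecut1 of amacrine and horizontal cells, Pmel of pigment epithelium, Kdr of endothelium and Klf1 of blood. No marker of lens, microglia, muscle and mesenchyme or liver had one.

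FGF ligands bind receptor tyrosine kinases together with heparan sulfate, and the receptors signal through adaptors to the RAS, RAF, MEK and ERK cascade. ERK activity raises ETS factors of the PEA3 group, such as Etv5, and also Sprouty and dual-specificity phosphatase genes, whose products dampen the same cascade. In the eye, FGF signals separate the neural retina from the pigment epithelium and start neuronal differentiation in the central retina.

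A TSS peak was one within 1000 bp of any annotated transcript start of the gene. One gene model had to be set apart before the genes were compared. The annotated Fgfr2 body spans 3009 kb, since 1 of its 29 transcripts starts within Ctbp2. The window of that transcript brought in 20 of the 42 peaks, among them TSS peaks of Ate1, Tacc2 and Plekha1 and the peak at the Ctbp2 start (4477 bp, ranked 88 by length, pileup 21.6, fold enrichment 6.07), which by this transcript alone would count as a TSS peak of Fgfr2. All values from here on leave that transcript out, unless stated.

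A TSS peak was found at 9 of the 10 genes, with or without that transcript, and Fgf8 was the exception. Of all protein-coding genes, 49.8% had such a peak. The 9 genes differed far more in the length of the peak than in its pileup. The list gives 1 pileup per region, which was not read as the height of a summit. The longest TSS peak of a gene ran from 420 bp at Fgf3 to 6588 bp at Fgf9, and the highest pileup of a gene from 9.19 at Fgfr2 to 17.4 at Fgfr1. The median of the longest TSS peak was 1631 bp in the 9 genes against 1137 bp over all genes with one. The median pileup was 15.8 against 16.6, and the median fold enrichment 4.0 against 4.77. Among the longest 1% of all peaks were the TSS peaks of 3 genes, Fgf9, Fgf15 and Spry2, where 0.537% of all genes had one of that length. None of the 10 genes had a TSS peak among the highest 10% by pileup, where 6.45% of all genes did. A TSS peak of at least 4-fold enrichment and a false discovery rate (q) of at most 0.001 was present at Fgf9, Fgfr1, Spry1 and Spry2, which is 4 of the 10 genes against 37.8% of all genes. With the transcript that starts in Ctbp2 kept, Fgfr2 would be added to each of these counts, making 4 genes by length, 1 by pileup and 5 by enrichment and q, and would have the highest TSS pileup of the 9 genes in place of the lowest.

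**Figure D1:**
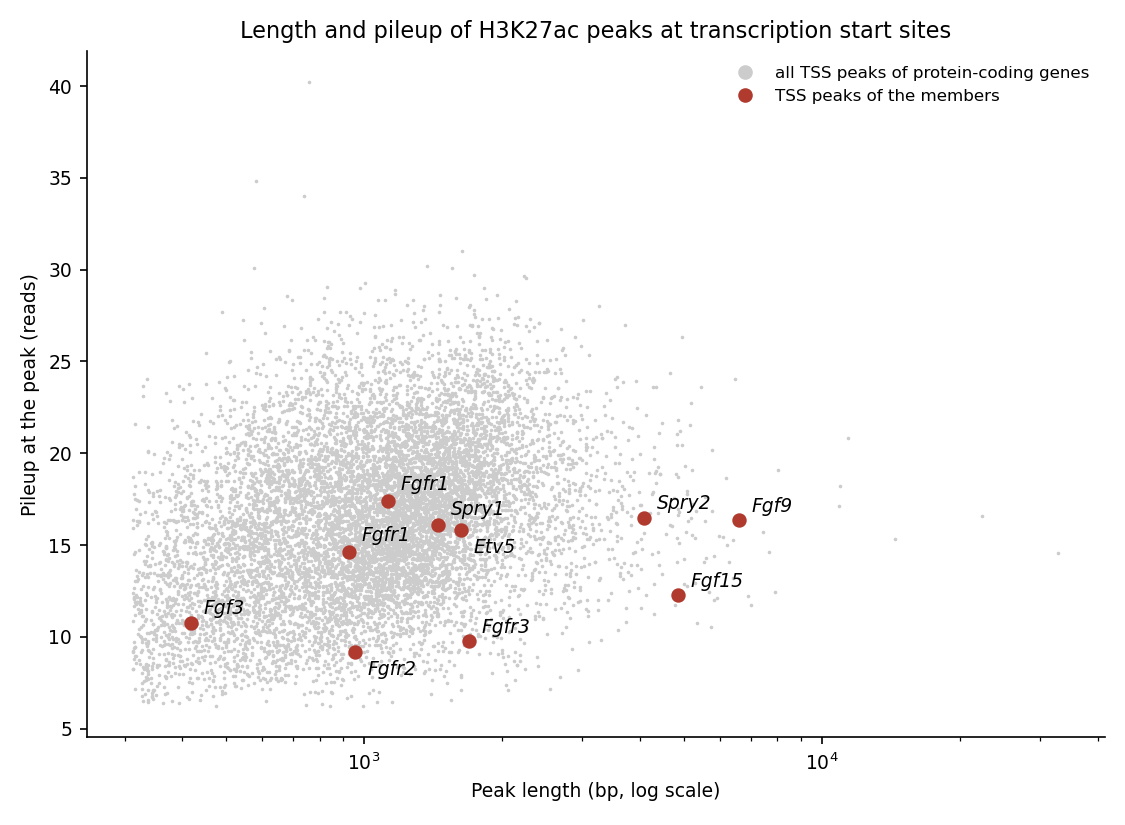
Length (bp, log scale) and pileup (reads) of all 10302 TSS peaks of protein-coding genes (grey points) and of the 10 TSS peaks of the FGF genes (red points, Fgfr1 with 2 peaks). Fgf9, Fgf15 and Spry2 lie at the right end at 4087 bp and over, with pileups of 12.3 to 16.5 in the middle and lower part of the grey points.

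Without the transcript that starts in Ctbp2, the Fgfr2 body spans 104 kb (chr7:137306026-137410322) and 22 peaks remained at the 10 loci, of which 10 were TSS peaks of the FGF genes, 7 were TSS peaks of other genes and 5 were at no annotated TSS. They covered 3.56% of the extended loci (1.68% with that transcript kept), against 0.918% of the same windows around all protein-coding genes. The 44929 bp covered include 7915 bp at Ccnd1, the TSS peak of another gene, and 6588 bp at Fgf9. The median number of peaks per window was 2 against 1. At least 1 peak at no annotated TSS lay within the windows of 5 of the 10 genes, Fgf3, Fgf9, Fgfr1, Fgfr3 and Spry2, and within 17.8% of the windows of all genes.

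**Figure D2:**
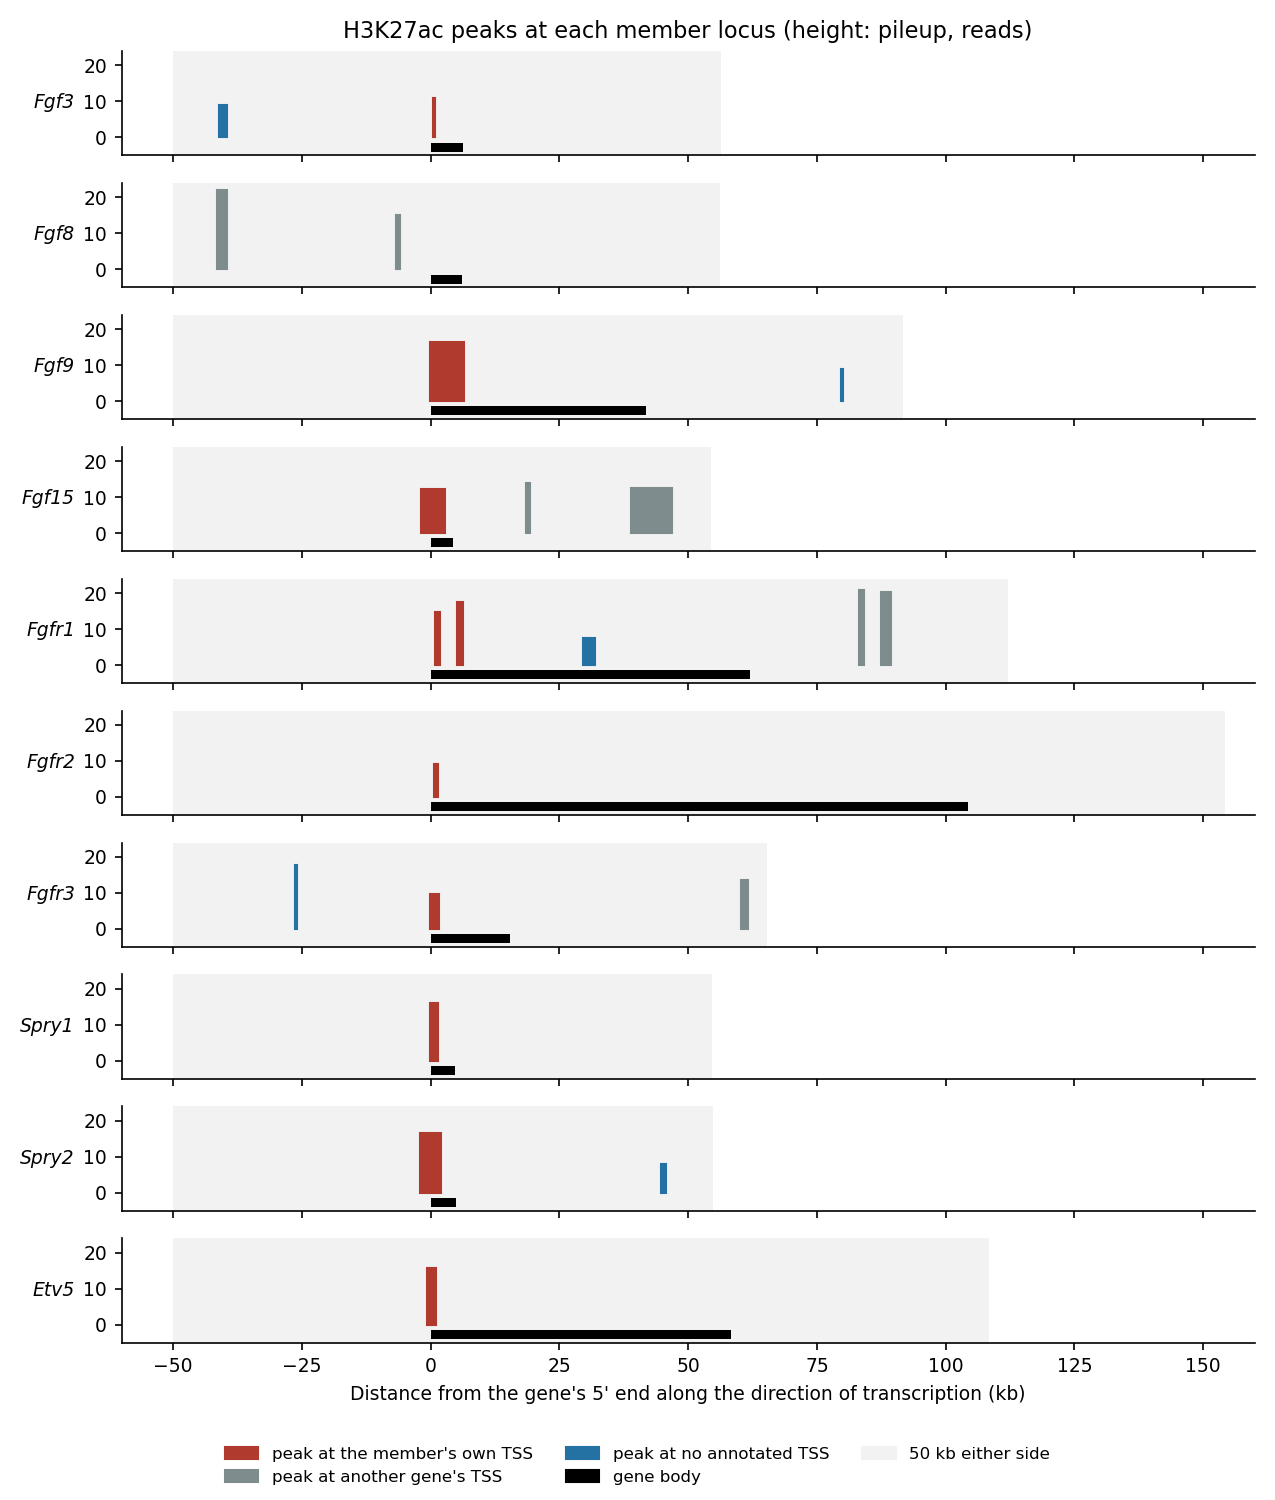
H3K27ac peaks at the 10 loci, drawn by distance from the 5′ end of the gene along transcription (kb), with the height of each peak giving its pileup (reads). Red peaks are TSS peaks of the gene named on the left, grey peaks are TSS peaks of other genes, blue peaks are at no annotated TSS, black bars are gene bodies and the shaded area is the window. Fgf8 has grey peaks only, and Fgfr2, Spry1 and Etv5 have a single red peak.

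Among the ligands, Fgf8, which acts in the optic stalk and in the patterning of the midbrain and limb, had no peak within 5892 bp of its 5′ end. The gene lies at chr19:45811288-45817405 on the minus strand. Its window held 2 peaks, both upstream and both TSS peaks of other genes. The nearer covered the start of the histone chaperone gene Npm3 (788 bp, pileup 14.9). The other covered the start of Mgea5, which encodes the enzyme that removes O-GlcNAc (2004 bp, pileup 22.0), and was the highest of the 22 peaks.

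Fgf9, which is made in the neural retina and can turn pigment epithelium into retina when misexpressed, carried the longest peak of the FGF genes. The peak (chr14:58689229-58695816) was 6588 bp long, ranked 15 of 13463 by length, and covered 4 of the 4 annotated starts. Its pileup of 16.4 ranked 5397 and its fold enrichment of 4.37 ranked 7141, both close to the middle of the list. It was also the most one-sided of the long peaks, with 155 bp before the 5′ end and 6432 bp after it, and 1157 bp of it lay in exons. The peak after it in the window, at no TSS, lay 79.7 kb from the 5′ end, beyond the 3′ end of the gene (chr14:58769085-58769476), and was 392 bp long with a pileup of 8.95, a fold enrichment of 3.24 and a q of 0.0302. The Fgf9 promoter, from 250 bases before to 29 after the 5′ end, was 45.7% GC, against a median of 61.1% for promoters of genes with a TSS peak and 48.6% for those without. The peak itself was 57.8% GC. The promoter is shown as that at the longest peak of the FGF genes, which begins 155 bp before the 5′ end and covers only part of the window. The 1 match of the promoter to GGAAG, the core of ETS sites, reads CTTCC on the strand shown and is in capitals.
Fgf9 promoter, plus strand, chr14:58689134-58689413: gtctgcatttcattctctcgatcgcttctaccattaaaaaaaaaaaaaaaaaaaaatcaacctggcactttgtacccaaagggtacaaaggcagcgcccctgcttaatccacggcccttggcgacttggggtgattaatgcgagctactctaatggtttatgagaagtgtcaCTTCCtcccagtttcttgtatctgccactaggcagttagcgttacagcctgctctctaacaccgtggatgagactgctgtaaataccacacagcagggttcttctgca

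Fgf15, the mouse counterpart of human FGF19 and a ligand of retinal progenitors, had a TSS peak of 4842 bp (chr7:152080479-152085320), ranked 68 by length. Its pileup of 12.3 ranked 9333 and its fold enrichment of 3.91 ranked 9447, with a q of 0.000633. Of the genes with a TSS peak, 99.4% had a shorter one and 15.5% had a lower pileup. The peak reached 1958 bp before and 2883 bp after the start, and so took in most of the 4.42 kb gene body. It also covered the start of the antisense lincRNA Gm17685, and the list does not say to which transcript the mark belongs. Its window held the start of Oraov1 (822 bp, pileup 14.0) and that of Ccnd1, the G1 cyclin of retinal progenitors, whose peak of 7915 bp was the longest of the 22 and ranked 9 in the whole list (pileup 12.4).

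The Fgf15 peak held 3 matches to TAATTA, the core bound by LHX2 and many other homeodomain factors, while the other 9 TSS peaks of the FGF genes held none. This is 0.62 per kb, against 0.191 per kb over the 131 peaks of at least 4000 bp, of which 17 (13.0%) held 3 or more. Over all TSS peaks it was 0.0855 per kb, and 8.65% had at least 1 match. All 3 matches lie upstream of the Fgf15 start, within the exon of Gm17685. The matches are a description of the sequence and show no binding. They are printed from the plus strand of mm9 with 60 bases on either side and the match in capitals, and the gene was singled out after the matches were counted.
Fgf15, 1861 bp before the start, chr7:152080514-152080639: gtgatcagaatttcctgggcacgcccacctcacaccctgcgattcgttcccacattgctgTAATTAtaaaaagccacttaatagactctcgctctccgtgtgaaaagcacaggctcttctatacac
Fgf15, 1231 bp before the start, chr7:152081144-152081269: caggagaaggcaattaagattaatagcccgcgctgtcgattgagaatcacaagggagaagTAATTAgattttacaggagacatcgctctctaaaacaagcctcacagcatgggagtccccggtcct
Fgf15, 273 bp before the start, chr7:152082102-152082227: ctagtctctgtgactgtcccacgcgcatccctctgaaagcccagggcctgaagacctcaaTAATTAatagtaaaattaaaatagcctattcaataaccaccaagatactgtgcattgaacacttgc

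Fgf3, the neighbour of Fgf15 and a ligand of the inner ear and hindbrain, had the shortest and least enriched TSS peak of the FGF genes. It was 420 bp long (chr7:152024449-152024868), with a pileup of 10.8 and a fold enrichment of 3.06, ranked 12342, 10621 and 13121. Its q was 0.0264. It missed the 5′ end by 461 bp and covered the other of the 2 annotated starts. The windows of Fgf3 and Fgf15 shared no peak, although the genes lie close together. The Fgf15 peak began 138 bp beyond the border of the Fgf3 window, the nearest of all peaks outside a window, and the Fgf3 peak ended 7569 bp beyond that of Fgf15. The nearest peak inside a border was the TSS peak of Letm1 in the Fgfr3 window, which reached 5058 bp into it. A further peak, 39.5 kb upstream of Fgf3 and at no TSS (chr7:151982999-151984439), was longer than that at the start, at 1441 bp, with a pileup of 8.91, a fold enrichment of 3.83 and a q of 0.00467.

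Among the receptors, which share an extracellular immunoglobulin-like part and an intracellular tyrosine kinase, Fgfr1 had the higher peaks. It was the one gene of the 10 with 2 TSS peaks. The peak at chr8:26625000-26625925 (926 bp) had a pileup of 14.6 and a fold enrichment of 5.77, and lay 874 bp after the 5′ end without covering a start. The peak at chr8:26629327-26630453 (1127 bp) had a pileup of 17.4 and a fold enrichment of 5.49, and covered 3 of the 13 starts. By fold enrichment they ranked 2314 and 3021, the highest ranks of the 10 TSS peaks. Fgfr2 and Fgfr3 stood lower. The Fgfr2 peak (chr7:137408793-137409747, 955 bp) had a pileup of 9.19 and a fold enrichment of 4.0, and began 575 bp after the 5′ end. The Fgfr3 peak (chr5:34064333-34066027, 1695 bp) had a pileup of 9.78 and a fold enrichment of 3.83, and covered 5 of the 9 starts. Only 3.24% and 4.79% of the genes with a TSS peak had a lower pileup than Fgfr2 and Fgfr3, against 57.8% for Fgfr1. The order of the receptors, Fgfr1 over Fgfr3 over Fgfr2, was that of the pileup in 1 pooled list. No spread can be given for it, and Fgfr3 and Fgfr2 differ by 0.59 reads. By length Fgfr3 came before Fgfr1 and Fgfr2.

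The Fgfr1 window also held a peak at no TSS in an intron, 29.6 kb from the 5′ end, which was the longest of its kind at the 10 loci at 2257 bp and the lowest of all 22 peaks with a pileup of 7.55. Its fold enrichment was 3.60 and its q 0.0186. In the Fgfr3 window, a peak at no TSS lay 26.0 kb upstream (chr5:34038035-34038410). At 376 bp it was the shortest of the 22 peaks, yet its pileup of 17.8 was 1.82 times that of the Fgfr3 TSS peak. Its fold enrichment of 3.44, with a q of 0.000235, was below the 3.83 of the TSS peak.

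Sprouty proteins block receptor signalling upstream of ERK. The Spry2 TSS peak (chr14:106294080-106298166) was 4087 bp long, ranked 120, and lay almost evenly about the start, with 2130 bp before and 1956 bp after it. Its pileup was 16.5 and its fold enrichment 5.21. The Spry1 peak (chr3:37538808-37540261) was of about the same pileup, 16.1, and fold enrichment, 4.89, but was 1454 bp long and reached 61 bp before the 5′ end and 1392 bp after it. The Spry1 window held no other peak. The Spry2 window held one more, 44.7 kb from the 5′ end on the downstream side (chr14:106250319-106251294), at no TSS, with a length of 976 bp, a pileup of 8.13, a fold enrichment of 4.20 and a q of 0.00217. The Spry2 promoter is shown, from the minus strand, as that of the most symmetric of the long peaks, with its 1 match to GGAAG in capitals.
Spry2 promoter, chr14:106296007-106296286: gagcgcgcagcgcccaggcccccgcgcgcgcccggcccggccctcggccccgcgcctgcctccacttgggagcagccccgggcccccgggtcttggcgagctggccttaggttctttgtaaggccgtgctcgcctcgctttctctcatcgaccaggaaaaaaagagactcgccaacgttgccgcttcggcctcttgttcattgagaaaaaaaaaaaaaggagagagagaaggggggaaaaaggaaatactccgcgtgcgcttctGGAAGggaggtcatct

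Etv5, the ETS factor, had a single peak (chr16:22438829-22440459) of 1631 bp, with a pileup of 15.8 and a fold enrichment of 3.81. It covered 4 of the 6 starts and reached 667 bp before and 963 bp after the 5′ end. Peaks that covered the 5′ end, which Fgf9, Fgf15, Fgfr3, Spry1, Spry2 and Etv5 had, reached further downstream than upstream in all but Spry2. Over the 8289 protein-coding genes with such a peak, 72.4% reached further downstream. The median reach over all 8289 was 719 bp downstream and 487 bp upstream.

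**Figure D3:**
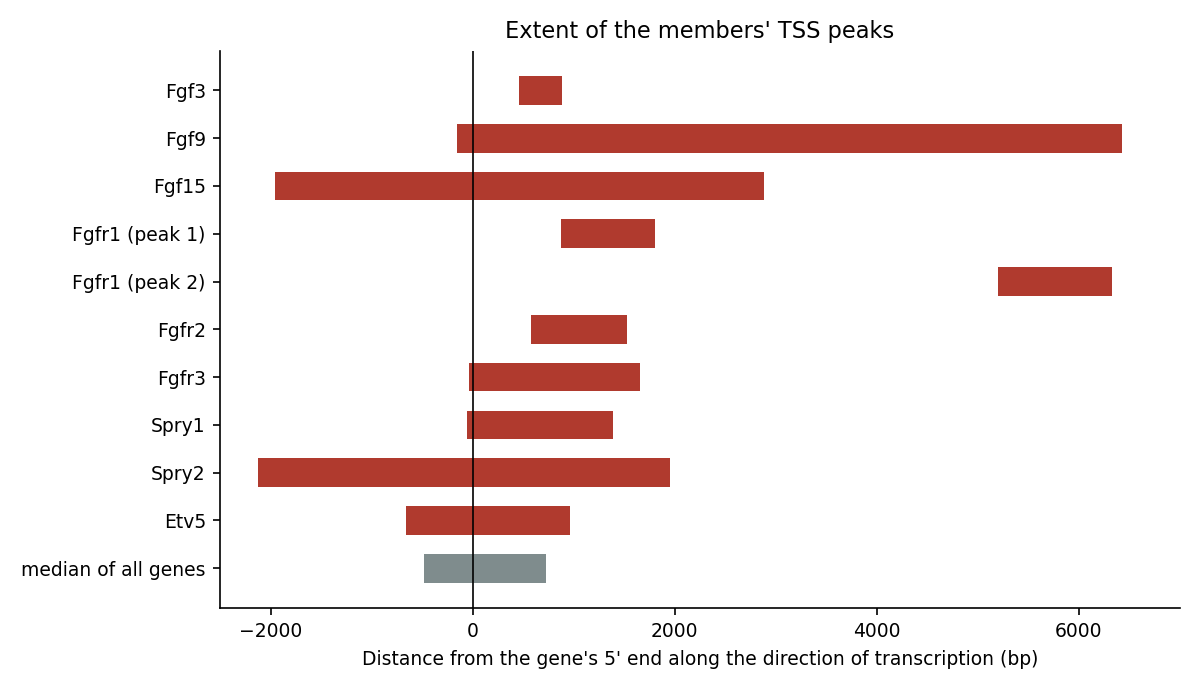
Extent of the 10 TSS peaks of the FGF genes before (negative) and after (positive) the 5′ end of the gene, in bp along transcription. Red bars are single peaks, and the grey bar gives the medians of 8289 protein-coding genes, 487 bp before and 719 bp after. Fgf9 reaches 6432 bp downstream, and the peaks of Fgf3, Fgfr1 and Fgfr2 start after the 5′ end.

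The peaks at no TSS were low in pileup in all but the Fgfr3 window, where it was 17.8. Their median pileup was 8.91, against 15.2 for the 10 TSS peaks there and 9.9 for all 2855 peaks at no TSS, which made up 21.2% of the list. None of the 5 reached the limits of 4-fold enrichment and q of 0.001 together, which 859 of all 2855 peaks at no TSS did. In 4 of them the GC content was 43.3 to 53.0%, and in the Fgfr3 peak it was 76.6%. The central 200 bases of those at Fgf3, Fgf9, Fgfr3 and Spry2, plus strand of mm9, are shown as the enriched sequence away from any start, with capitals for matches on either strand to the homeodomain core TAATTA, the ETS site CCGGAAGT and its core GGAAG, which the longer site contains, the SOX core ATTGTT, and the E-boxes CACGTG and (in its other form) CAGCTG. Of the centres of this length in all 2855 peaks at no TSS, 3.78% held TAATTA, 0.665% CCGGAAGT, 56.9% GGAAG, 8.58% ATTGTT, 3.82% CACGTG and 17.8% CAGCTG. The Fgf3 centre held 1 CAGCTG, the Spry2 centre held 3 GGAAG, and no letters matched in the Fgf9 and Fgfr3 centres. Among these 4 peaks, only that of Fgf9 held a TAATTA, 1 match outside its centre (chr14:58769170-58769175). The matches of the Fgfr1 peak are not reported here.
Fgf3, upstream, chr7:151983619-151983818: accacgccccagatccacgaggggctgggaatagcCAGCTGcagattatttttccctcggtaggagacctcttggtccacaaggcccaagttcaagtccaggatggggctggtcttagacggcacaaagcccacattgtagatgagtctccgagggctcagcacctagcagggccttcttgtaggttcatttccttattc
Fgf9, downstream, chr14:58769180-58769379: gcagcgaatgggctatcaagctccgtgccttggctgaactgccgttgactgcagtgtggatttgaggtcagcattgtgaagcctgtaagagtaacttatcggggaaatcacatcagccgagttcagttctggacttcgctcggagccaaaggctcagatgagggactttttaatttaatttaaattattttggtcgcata
Fgfr3, upstream, chr5:34038122-34038321: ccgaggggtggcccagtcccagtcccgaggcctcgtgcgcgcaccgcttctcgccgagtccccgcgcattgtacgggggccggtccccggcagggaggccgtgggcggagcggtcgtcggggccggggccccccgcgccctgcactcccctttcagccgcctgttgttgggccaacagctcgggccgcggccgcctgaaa
Spry2, downstream, chr14:106250706-106250905: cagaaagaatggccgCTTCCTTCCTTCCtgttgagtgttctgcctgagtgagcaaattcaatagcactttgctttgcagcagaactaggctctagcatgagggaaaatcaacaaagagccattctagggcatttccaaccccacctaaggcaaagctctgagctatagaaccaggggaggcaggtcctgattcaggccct

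The promoters of the 9 genes with a TSS peak were taken at the 5′ end, which the peaks of Fgf3, Fgfr1 and Fgfr2 do not cover. None of these promoters held TAATTA or CCGGAAGT. Of the promoters of this length with a TSS peak, 2.25% and 8.03% held them (4.77% and 4.48% of all 22367 promoters). GGAAG, present in 72.4% of those with a TSS peak and 68.7% of all, was found at all but Fgf15 and Spry1. CAGCTG was found at Fgfr3 and Etv5 and ATTGTT at Fgfr1, and none held CACGTG. Among promoters with a TSS peak, 12.5%, 5.77% and 9.88% held these. The counts were not tested against the shares. The 10 TSS peaks held no CCGGAAGT either, against 0.103 per kb over all TSS peaks. Their median GC content was 62.8%, against 61.6% over all TSS peaks.

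The rest of the pathway was read from a list of 69 annotated genes by role, 10 of them those above. A TSS peak was found at 52 of the 69 (75.4%), and at 43 of the 59 other genes (72.9%), against 49.8% of all protein-coding genes. The shares differed by role. All 9 adaptors (Frs2, Frs3, Grb2, Gab1, Ptpn11, Shc1, Sos1, Sos2 and Cbl), all 9 genes of the kinase cascade and all 9 feedback inhibitors (Spry1, Spry2, Spry4, Spred1, Spred2, Spred3, Dusp4, Dusp6 and Il17rd) had one. So did the 3 ETS factors (Etv1, Etv4 and Etv5) and the 4 intracellular FGF homologous factors (Fgf11, Fgf12, Fgf13 and Fgf14), which do not act through FGF receptors. Of the heparan sulfate genes, Ext1, Ext2, Ndst1, Hs2st1, Hs6st1 and Hs6st2 had a TSS peak and Ndst2 had none. Flrt2 and Flrt3, membrane proteins that bind FGF receptors, had one and Flrt1 had none.

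Ligands stood at the other end, with a TSS peak at 6 of 18. Besides Fgf3, Fgf9 and Fgf15 these were Fgf2 (1011 bp, pileup 17.2), Fgf18 (688 bp, pileup 10.3) and Fgf20 (1275 bp, pileup 22.3), the last a close relative of Fgf9. The 12 ligands without one were Fgf1, Fgf4, Fgf5, Fgf6, Fgf7, Fgf8, Fgf10, Fgf16, Fgf17, Fgf21, Fgf22 and Fgf23. Of the receptors and co-receptors, Fgfrl1, which lacks the kinase, had a TSS peak (861 bp, pileup 15.9), and Fgfr4 and the klotho genes Kl and Klb, co-receptors of the endocrine FGFs, had none. A missing peak is the result of a threshold and does not show that the mark was absent.

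Outside the 10 genes, the longest TSS peaks of the list were those of the ERK phosphatase genes Dusp4 (4876 bp, ranked 63) and Dusp6 (3654 bp, ranked 184), followed by Etv1 (3048 bp), Spred2 (2739 bp) and Hs2st1 (2145 bp). Spred1 (24.6), Fgf20 (22.3) and Spred2 (22.0) were among those with the highest pileups. By group, the median longest TSS peak was 2014 bp in the feedback inhibitors and 1161 bp in the kinase cascade, while the median pileup was 16.5 and 19.0.

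**Figure D4:**
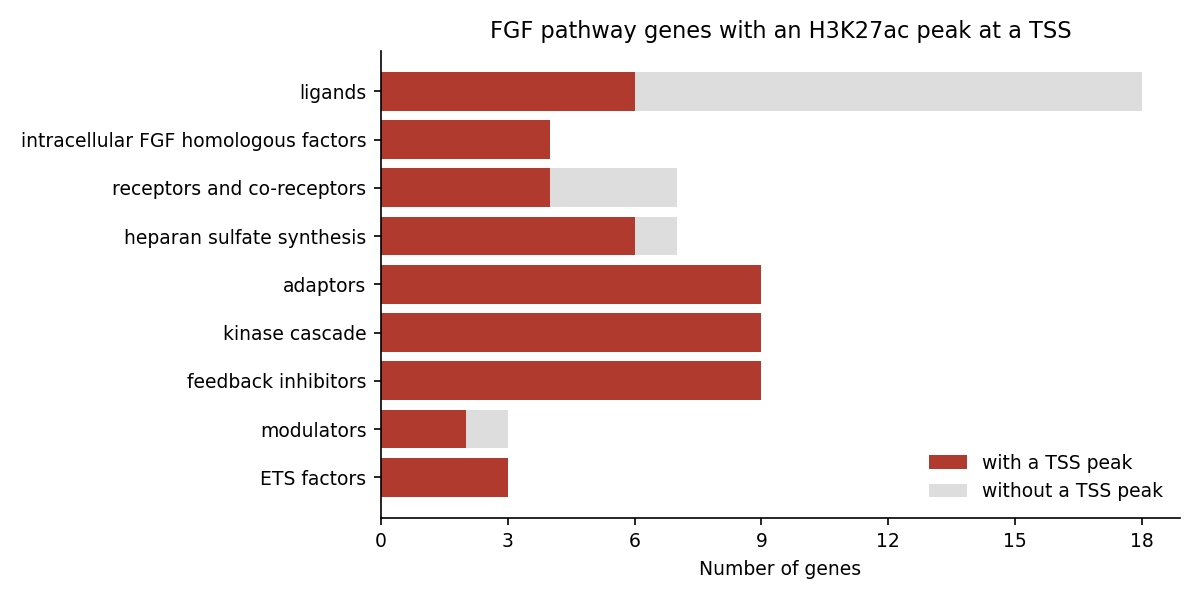
Number of FGF pathway genes with (red) and without (grey) an H3K27ac peak at a TSS, by role, for 69 annotated genes. Adaptors, kinase cascade and feedback inhibitors are red throughout with 9 genes each, and ligands are mostly grey with 6 of 18.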

How the data were processed

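Peaks of the E14 H3K27ac ChIP-Seq were used as deposited, and the other samples were not analysed here. The authors aligned reads to mm9 with Bowtie2, pooled 2 replicates and, against the isotype control, ran MACS 2.1.0.20140616 in its broad mode (cutoff 0.1). Per the file headers, the pileup signal is scaled to the smaller library, fold enrichment is the ratio of pileup to local control, and −log10 p and −log10 q values are means over a region. The length of each peak was deposited with them.

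Starts, exons and gene bodies were taken from GENCODE vM1 and sequence from NCBIM37. A gene listed under several identifiers was represented by the longest. Ranks run downwards over all peaks. Promoters span 250 bases before to 29 after the 5′ end, shorter than first planned, and motifs were searched on both strands. Medians and shares are over all protein-coding genes. The counting was tested on simulated peaks. Python 3.11.15, numpy 2.4.6, pandas 2.3.3 and matplotlib 3.10.9 were used.

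All 10 genes were named, with length, pileup and fold enrichment for TSS peaks and peaks at no TSS, and q for the latter. From the pathway list, values were given for ligands and for the 5 longest and 5 highest TSS peaks. Some values and sequences under this rule are not reported here. The genes, lists and limits were chosen with earlier results of these data known. Alternatives changed the peak threshold, merging, overlap rule, start window and extension. Spry3 and Tfap2b did not match the annotation by symbol.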

Additional observations from a re-analysis of the deposited data

How the results depend on the processing

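The 9 FGF genes with a TSS peak remained 9, with Fgf8 alone without one, when neighbouring peaks were merged, when the midpoint had to lie in the window, when a start had to be covered, when the window ran from 5000 bp before to 1000 bp after a start, and when starts were limited to the 5′ end. At a q of at most 0.01 the count was 8, without Fgf3. At 4-fold enrichment and a q of at most 0.001, 5 genes were counted and 25 peaks in place of 42. The 5 include Fgfr2 only through the transcript that starts in Ctbp2, without which the counts were 4 genes and 11 peaks. Leaving out that transcript, an alternative chosen after the data were seen, gave 22 peaks and a coverage of 3.56% in place of 1.68%. Without it, the 22 peaks became 12 with 10 kb and 30 with 100 kb on either side, and the coverage of 3.56% became 2.31% at the stricter threshold, 5.27% with 10 kb and 2.62% with 100 kb. The FGF pathway count of 52 ranged from 40 at the stricter threshold (39 without that transcript) to 53, and that of progenitor markers was 11 or 12. No paired analysis was possible because the peak list pools its replicates. Depth and the shallow control limit the list to enriched regions, and a missing peak is not a measured 0.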
